A study of Mus musculus with 7 samples.

Results

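PU.1 was mapped in myeloid precursors (MPs) and in the osteoclasts (OCs) they form, and the sites described here are those that its peak lists hold from 36 h of RANKL onwards but not before. They were selected on the PU.1 peak lists themselves: among the PU.1 peaks of OCs on chromosomes 1 to 19 and X with a score worth at least 14 tags, those that overlap a PU.1 peak at 36 h by 1 bp or more and no PU.1 peak in MPs. The rule found 1396 sites among 44803 such peaks (3.12%). The whole OC list holds 77072 peaks. In ChIP-Seq an antibody pulls down DNA bound by a protein and the DNA is sequenced, and the peak score is the number of tags in a peak on HOMER's common scale. Bone marrow myeloid cells came from C57BLACK6 mice 4 to 6 weeks of age and had been grown for 3 days with 50 ng per mL CSF1, which all groups received. MPs got CSF1 only, while the cells of the other times got CSF1 with 100 ng per mL RANKL for 36 h or for 72 h (OCs). PU.1 and MITF were precipitated at each time with 5 µg of antibody, and a non-specific preimmune IgG was used on MPs only. Each of the 7 conditions has 1 library, so no difference between times has a replicate check and all intervals below cover counting error only. The labels do not say how many mice were pooled, and a bone marrow culture can hold cells that have not differentiated.

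PU.1 is an ETS-family transcription factor that recognises purine-rich DNA around a GGAA core and opens enhancers of the macrophage lineage. RANKL, the cytokine that turns MPs into OCs, acts through its receptor RANK on NF-kB and on AP-1, a dimer of FOS and JUN proteins, and later on NFATC1, and MITF is an E-box-binding factor that partners PU.1 at OC genes. All 14 genes of a list for bone resorption, which holds the OC markers Acp5, Ctsk, Mmp9 and Calcr, named at least 1 PU.1 OC peak of the score range, and so did 19 of 20 genes of a macrophage list. For comparison, 6 of 9 B cell genes and 4 of 10 T and NK cell genes did so. The lists hold binding and no expression, so they do not show which cells were present.

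The label of these sites as gained was checked against the distance to the nearest PU.1 peak of MPs, and 292 of the 1396 sites (20.9%, 95% Wilson interval 18.9% to 23.1%) had the center of an MP peak within 500 bp. The distances in this group ran from 151 to 500 bp. None of the PU.1 lists of MPs and OCs holds a pair of peaks with centers under 370 bp apart, and 247 of the 292 sites lay closer than that to the MP peak. For 262 of the 292, the neighbouring MP peak itself overlapped no PU.1 peak of OCs. The median score of the neighbouring MP peaks was 29.0, beside a median OC score of 30.8 for the sites. The 292 loci thus had a listed PU.1 peak in MPs at a nearby position. For the 262 whose neighbour overlapped no OC peak, this goes against calling them gained. At the rest of the 292 the MP neighbour overlapped another OC peak, so the site was listed beside a kept one. All 292 are called adjacent sites below, and the other 1104 sites (2.46% of the 44803 peaks) are called separate sites.

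**Figure D1:**
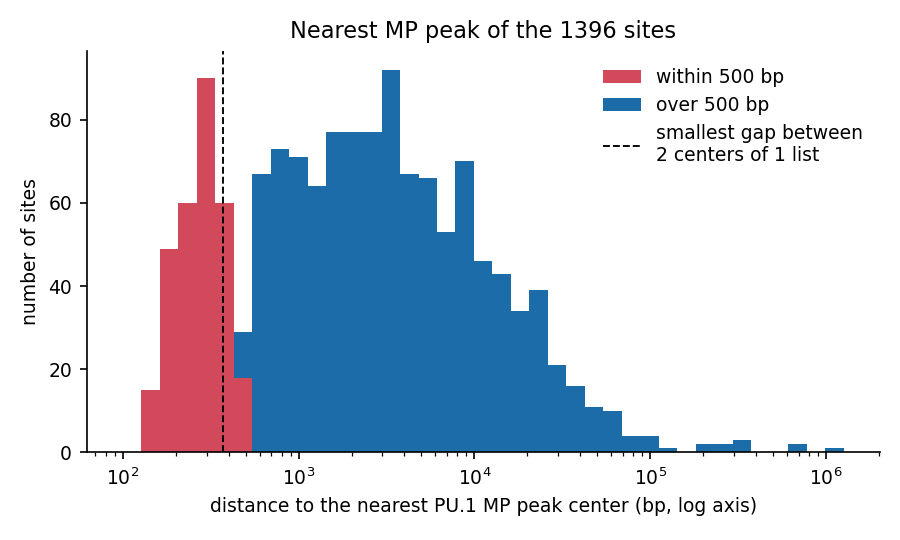
Number of sites by the distance from the site's center to the nearest PU.1 MP peak center, in bp on a log axis, for all 1396 sites. The 292 adjacent sites lie between 151 and 500 bp, most of them left of the dashed line at 370 bp, the smallest gap between peak centers of the OC list, and the 1104 separate sites have a median distance of 3223 bp.

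The DNA under the sites is shown first, for those the results turn on. Each sequence is the 201 bp around the center of the OC peak on the plus strand of mm9, read from the genome, with matches to the PU.1 motif GAGGAAGT (ACTTCCTC on the other strand) and to the AP-1 motif TGANTCA in capitals. The first 3 are the highest separate sites with a PU.1 match. They lie near Slc11a2, which encodes an iron transporter (chr15:100260669-100260869), Ptafr, the receptor of platelet-activating factor (chr4:132147182-132147382), and Slc25a37, the mitochondrial iron importer mitoferrin (chr14:69906880-69907080).
Slc11a2: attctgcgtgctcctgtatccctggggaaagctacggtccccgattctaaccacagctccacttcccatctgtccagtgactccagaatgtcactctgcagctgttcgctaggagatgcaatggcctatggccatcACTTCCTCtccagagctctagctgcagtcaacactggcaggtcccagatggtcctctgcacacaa
Ptafr: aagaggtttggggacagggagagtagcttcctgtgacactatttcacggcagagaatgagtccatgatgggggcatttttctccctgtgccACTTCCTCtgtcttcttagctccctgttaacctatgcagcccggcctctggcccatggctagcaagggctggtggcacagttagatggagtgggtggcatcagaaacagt
Slc25a37: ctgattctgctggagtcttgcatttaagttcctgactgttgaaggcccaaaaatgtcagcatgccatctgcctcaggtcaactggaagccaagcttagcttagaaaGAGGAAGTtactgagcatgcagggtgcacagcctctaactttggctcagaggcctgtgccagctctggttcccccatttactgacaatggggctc

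Next come 4 separate sites at genes of the OC lists, with an AP-1 or a PU.1 match. They were nearest to Cd81, a tetraspanin of cell fusion (chr7:150227043-150227243), Irf8, a factor that restrains OC formation (chr8:123240001-123240201), Fos, an AP-1 subunit needed for OCs (chr12:86863911-86864111), and Snx10, a sorting nexin needed for resorption (chr6:51507388-51507588).
Cd81: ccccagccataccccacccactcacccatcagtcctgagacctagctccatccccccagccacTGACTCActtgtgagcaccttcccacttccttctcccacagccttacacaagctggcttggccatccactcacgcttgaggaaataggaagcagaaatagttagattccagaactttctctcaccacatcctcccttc
Irf8: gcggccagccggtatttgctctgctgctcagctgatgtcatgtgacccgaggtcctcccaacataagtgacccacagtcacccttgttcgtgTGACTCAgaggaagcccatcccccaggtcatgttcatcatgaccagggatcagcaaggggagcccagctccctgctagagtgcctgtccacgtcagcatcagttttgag
Fos: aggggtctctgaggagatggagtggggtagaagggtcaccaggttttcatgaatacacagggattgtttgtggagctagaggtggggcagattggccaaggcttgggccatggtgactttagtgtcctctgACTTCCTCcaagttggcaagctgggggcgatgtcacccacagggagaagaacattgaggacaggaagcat
Snx10: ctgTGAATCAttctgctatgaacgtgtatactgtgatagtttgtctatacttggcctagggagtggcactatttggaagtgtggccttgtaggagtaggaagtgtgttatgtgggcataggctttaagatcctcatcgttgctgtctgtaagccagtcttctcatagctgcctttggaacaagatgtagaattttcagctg

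The next 4 are adjacent sites. Tmco5 names the highest site with an AP-1 match (chr2:116815114-116815314), Mapk7 the site with the highest MITF score in OCs (chr11:61311233-61311433), and Ccr2, a chemokine receptor of monocytes, the highest site of any gene list (chr9:123983216-123983416), where the PU.1 and AP-1 matches share bases. The fourth lies in an intron of Mitf itself (chr6:97768157-97768357).
Tmco5: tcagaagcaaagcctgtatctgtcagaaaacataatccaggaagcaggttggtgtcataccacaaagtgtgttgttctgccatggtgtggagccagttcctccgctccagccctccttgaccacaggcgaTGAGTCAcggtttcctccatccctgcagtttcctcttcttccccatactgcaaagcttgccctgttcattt
Mapk7: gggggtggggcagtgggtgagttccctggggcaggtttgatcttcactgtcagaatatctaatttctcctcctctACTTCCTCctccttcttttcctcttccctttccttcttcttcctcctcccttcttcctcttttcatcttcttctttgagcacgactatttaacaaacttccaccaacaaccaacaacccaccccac
Ccr2: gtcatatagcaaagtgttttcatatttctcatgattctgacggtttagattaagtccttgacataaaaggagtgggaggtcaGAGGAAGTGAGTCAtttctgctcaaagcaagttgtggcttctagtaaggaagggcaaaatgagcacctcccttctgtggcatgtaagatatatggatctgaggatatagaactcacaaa
Mitf: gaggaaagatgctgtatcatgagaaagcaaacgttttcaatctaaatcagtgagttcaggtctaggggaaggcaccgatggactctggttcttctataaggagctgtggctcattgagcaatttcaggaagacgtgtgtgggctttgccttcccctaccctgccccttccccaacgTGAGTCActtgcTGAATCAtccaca

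The motif that differed from both comparison sets with the widened intervals described below was that of NF-kB, GGANTTTCC (GGAAANTCC on the other strand), so 8 shorter stretches around it follow, with the match in capitals. They are from separate sites named by the nearest RefSeq gene, which can be far away: Slc7a11, a cystine transporter whose TSS the site lies -174130 bp from (chr3:50421602-50421662), Aif1, a macrophage calcium-binding protein (chr17:35311643-35311691), the stress gene Gadd45a, at -103675 bp (chr6:67091026-67091073), Mitf (chr6:97912075-97912135), the co-receptor Nrp2 (chr1:62783236-62783296), Tmsb10, an actin-binding thymosin (chr6:72888054-72888114), Sema7a, a semaphorin (chr9:57822280-57822340), and Fam32a (chr8:74741648-74741708).
Slc7a11: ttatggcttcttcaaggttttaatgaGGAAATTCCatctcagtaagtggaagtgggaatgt
Aif1: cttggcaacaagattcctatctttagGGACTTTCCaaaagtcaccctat
Gadd45a: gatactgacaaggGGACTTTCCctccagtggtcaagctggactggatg
Mitf intron: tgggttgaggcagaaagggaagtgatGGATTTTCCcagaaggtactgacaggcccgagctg
Nrp2: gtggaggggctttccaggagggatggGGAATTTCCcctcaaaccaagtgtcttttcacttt
Tmsb10: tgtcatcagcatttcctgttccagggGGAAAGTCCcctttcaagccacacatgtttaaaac
Sema7a: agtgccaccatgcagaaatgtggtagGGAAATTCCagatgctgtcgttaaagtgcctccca
Fam32a: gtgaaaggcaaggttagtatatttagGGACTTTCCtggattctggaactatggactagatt

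The scores of these sites chose them and are given as a description. Separate sites were low: the OC score reached 67.5 with a median of 23.5, which is 14 to 46 tags with a median of 16, and the 36 h score ran from 10.3 to 85.7 with a median of 22.2. Adjacent sites reached further, up to 248.2 in OCs (median 30.8) and from 10.3 to 279.4 at 36 h (median 29.6). The 35 sites of highest score among the 1396 were adjacent sites. At 734 separate sites the score was lower at 36 h than in OCs and at 370 it was higher. The OC score was at least 2 times the 36 h score at 86 separate sites, and the reverse held at 8. At 45 separate sites the 36 h peak had 7 tags, the lowest number in that list. The rule asks for 14 tags in OCs but only for a listed peak at 36 h, and of the 39685 peaks listed at all 3 times 26514 also had the lower score at 36 h, so nothing is read from the direction. At the edge of the rule, 260 sites had 14 tags (median 36 h score 17.7), and 319 sites with the same overlaps had 13 tags (median 36 h score 16.3) and were left out.

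**Figure D2:**
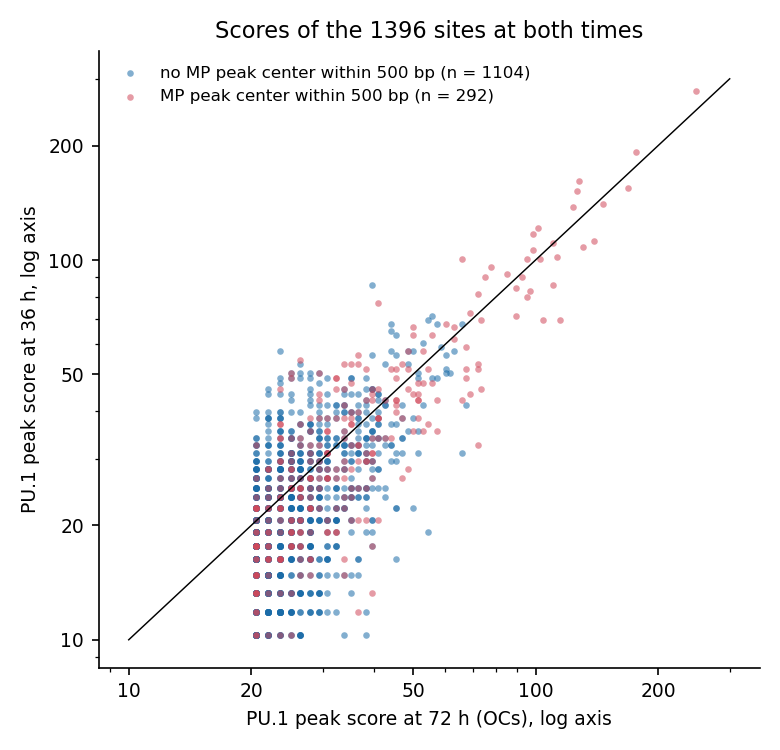
PU.1 peak score at 36 h against the score at 72 h, both on log axes, for the 1396 sites, with a line of equal scores. Separate sites (blue, n = 1104) end at 67.5 on the horizontal axis, and adjacent sites (red, n = 292) reach 248.2.

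The share of OC peaks that are gained and kept was lower at higher scores, as a description of what the rule selects. Separate sites were 8.41% of the peaks with 14 or 15 tags (7.67% to 9.22%), 2.22% of those with 21 to 25 tags and 0.261% of those with 36 to 50 tags. Among 6218 peaks with 51 to 80 tags and 4793 peaks with more there was no separate site. The share of adjacent sites was 0.958% in the lowest class and 0.289% at 51 to 80 tags. The lists end at 6 tags in MPs (score 10.2) and at 7 tags at 36 h and in OCs. Peaks with 14 or 15 tags in OCs that were listed at all 3 times had a median of 12 tags in MPs and of 13 at 36 h, and 11.4% of them had 6 or 7 tags in MPs, at the limit of that list. Tags of MPs under the limit of that list are not shown. How many of the separate sites changed in binding, and how many lay just under the limit in MPs, cannot be told apart from the lists.

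**Figure D3:**
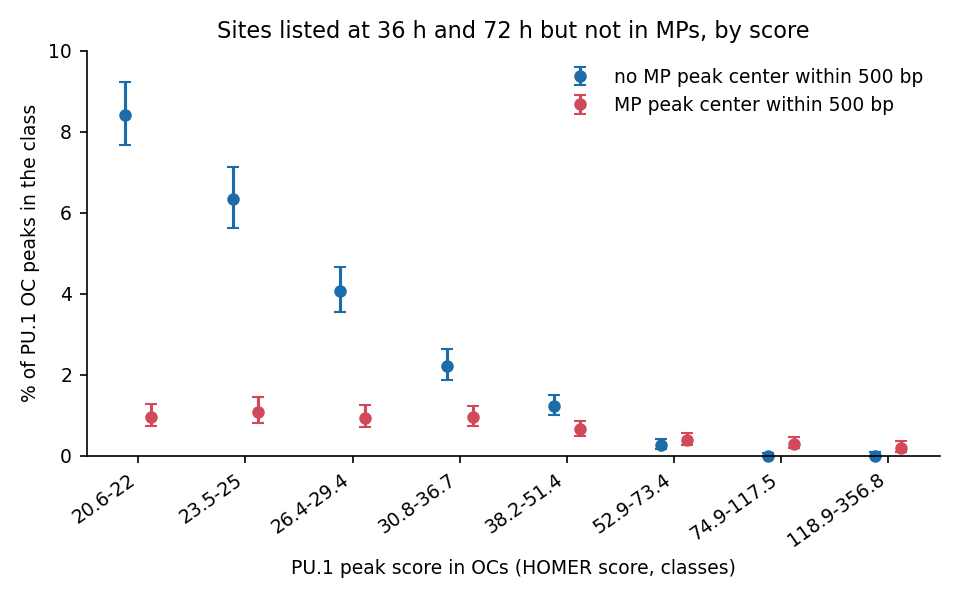
Percent of PU.1 OC peaks in each score class that were gained and kept, for separate sites (blue) and adjacent sites (red), with 95% Wilson intervals. Separate sites fall from 8.41% in the lowest class to 0 above a score of 73.4, and adjacent sites are at 1.08% or less in all classes.

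The 10 highest sites of the whole set were all adjacent, and their MP neighbours had scores of like size. At the site assigned to Olfml2b, in an exon of Atf6 (chr1:172639794-172639944), the score was 279.4 at 36 h and 248.2 in OCs, and the MP peak 159 bp away had 261.0. The site of Tmco5, a transmembrane protein gene 101271 bp away, had 192.2 at 36 h and 176.2 in OCs beside an MP peak of 218.3. At the promoter of Pold4, a DNA polymerase delta subunit, the values were 155.2 and 168.9, beside 192.8 in MPs. The sites of Mapkapk2, a kinase of the p38 pathway, and Dusp1, the phosphatase that inactivates MAP kinases, had OC scores of 139.5 and 127.8, beside MP peaks of 184.2 and 117.7. At Abcg1, a cholesterol exporter, the score was 126.3 and the MP neighbour had 119.4. At Gm826, Rab31, Tgm2 and Arhgap21 the OC scores were 146.8, 130.7, 123.3 and 114.5, and the MP neighbours had 136.5, 110.9, 127.9 and 85.3. For none of these 10 did the MP neighbour overlap a PU.1 OC peak.

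The highest separate sites had no MP peak center within 500 bp. The same ranking was applied to them after the adjacent sites had been seen. At an intron of Dscam, a cell adhesion molecule (chr16:97328036-97328186), PU.1 had a score of 41.4 at 36 h and 67.5 in OCs, and the nearest MP peak lay 1090 bp away. Downstream of Hexim2, an inhibitor of transcription elongation, the scores were 68.0 and 66.1. The site at -5266 bp from the TSS of Slc11a2 had 31.0 at 36 h and 66.1 in OCs, with the nearest MP peak 6958 bp away. Ptafr had 57.6 and 63.1, and Slc25a37 had 56.2 and 60.2. Of these 5, Slc11a2 had the widest gap between the 2 times and Hexim2 the narrowest. A site at -51541 bp from Ppargc1b, the coactivator of mitochondrial biogenesis in OCs, had 50.3 at 36 h and 60.2 in OCs. Il21r, a cytokine receptor, had 59.1 and 58.7, and Ctnnd2, a catenin, had 68.0 and 57.3. At Slc7a11 the score was 19.2 at 36 h and 54.3 in OCs.

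At promoters, the highest of the whole set were Pold4, Cluap1 (110.1 in OCs, at the TSS of the non-coding gene Gm15537), Snx29 (98.4), Mnt and Cav2, of which the first 3 were adjacent sites. Among separate sites, Mnt, a repressor that binds MAX, had 50.3 at 36 h and 61.7 in OCs at -930 bp from its TSS. Cav2, a caveolin, had 48.8 and 57.3. At Mcl1, which encodes an anti-apoptotic protein, the site at 52 bp from the TSS had 69.5 and 54.3, and at Tpm3, a tropomyosin, the site at -47 bp had 57.6 and 48.5. Mcl1 and Tpm3 thus had their higher score at 36 h, and Mnt and Cav2 in OCs.

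The distances of separate sites from genes differed by at most 2.36 percentage points in any class from those of other PU.1 sites of like score. For this comparison, peaks listed at all 3 times (39685) and peaks listed at 72 h only (1241) were weighted to the score classes of the sites. Of the 1241, 352 (28.4%) had an MP peak center within 500 bp and were kept in that set. The set listed at 72 h only thus differs from the separate sites in this too, in all comparisons with it below. Of the 1104 separate sites, 204 (18.5%) lay within 1 kb of a TSS, against 16.2% of the peaks listed at all 3 times, a difference of 2.32 percentage points (95% interval 0.0621 to 4.80). Against peaks listed at 72 h only, the difference was 1.037 points (-2.03 to 4.27). The share 10 to 100 kb from a TSS was 44.7%, with a difference of -0.189 points (-3.21 to 2.87) from peaks listed at all 3 times. Introns held 50.5% of the separate sites, exons 8.88% and intergenic DNA 40.6%, and the intron share differed by 0.0818 points (-2.98 to 3.14) from that of the peaks listed at all 3 times. Across the whole set of 1396, 270 sites (19.3%) lay within 1 kb of a TSS. In exons the separate sites differed by 1.44 points (-0.155 to 3.32) from peaks listed at all 3 times and by 2.16 points (0.0406 to 4.49) from peaks listed at 72 h only. Over all 1396 sites the exon difference from peaks listed at all 3 times was 1.73 points (0.278 to 3.40), and that within 1 kb of a TSS was 3.28 points (1.22 to 5.50).

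MITF was listed at hardly any of the separate sites. Of 1104, 2 overlapped a MITF peak at 36 h, and 0 overlapped one in MPs or in OCs, which allows a share of up to 0.272% as 3 counts of 1104 (the Wilson interval, which the differences below use, ends at 0.347%). The 2 sites were that of Mnt, with a MITF score of 9.70 at 36 h, and a site in an intron of Cdk8, a kinase of the Mediator complex, with a MITF score of 13.6. The Cdk8 site also overlapped an IgG peak of score 32.0, and its PU.1 scores were 63.6 at 36 h and 45.5 in OCs. It was the only one of the 1396 sites that overlapped an IgG peak. Among all 44803 PU.1 OC peaks, 11.8% overlapped a MITF peak of MPs, 7.39% one at 36 h and 9.22% one of OCs, and after weighting to the score classes, 0.494% of the peaks listed at all 3 times overlapped a MITF MP peak and 0.400% a MITF OC peak. The differences were -0.494 points (-0.572 to -0.138) in MPs, -0.0891 points (-0.233 to 0.391) at 36 h and -0.400 points (-0.471 to -0.0460) in OCs. For a MITF peak at any time the share was 0.181% against 1.01%, a difference of -0.830 points (-1.004 to -0.339). Against peaks listed at 72 h only it was -0.121 points (-0.408 to 0.419). MITF overlap in MPs, in OCs and at any time was thus lower at separate sites than at peaks listed at all 3 times. The differences were under 1 point, and at 36 h the interval included 0. Separate sites could not be told from peaks listed at 72 h only at this depth. Peaks listed at all 3 times have a PU.1 peak in MPs by definition, and separate sites have no PU.1 MP center within 500 bp. The comparison of these 2 sets is thus not independent of the rule, and how much of the difference the rule sets was not tested.

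Among the 292 adjacent sites, 15 overlapped a MITF peak at some time, namely 9 in MPs, 5 at 36 h and 6 in OCs. The site of Mapk7, a MAP kinase, had the highest MITF score in OCs (16.0) and no MITF peak at the earlier times. Ext1, a heparan sulfate enzyme, had 13.5 in MPs and 14.8 in OCs. The Tmco5 site was the only one with a MITF peak in all 3 lists, of 14.5 in MPs, 28.2 at 36 h and 13.7 in OCs. Abcg1 had 11.4 and Pold4 9.10, each in OCs only. At the Olfml2b site MITF scored 20.8 in MPs and 121.7 at 36 h. In MPs 3.08% of the adjacent sites overlapped a MITF peak, against 4.61% of the peaks listed at all 3 times, a difference of -1.53 points (-2.98 to 1.15).

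**Figure D4:**
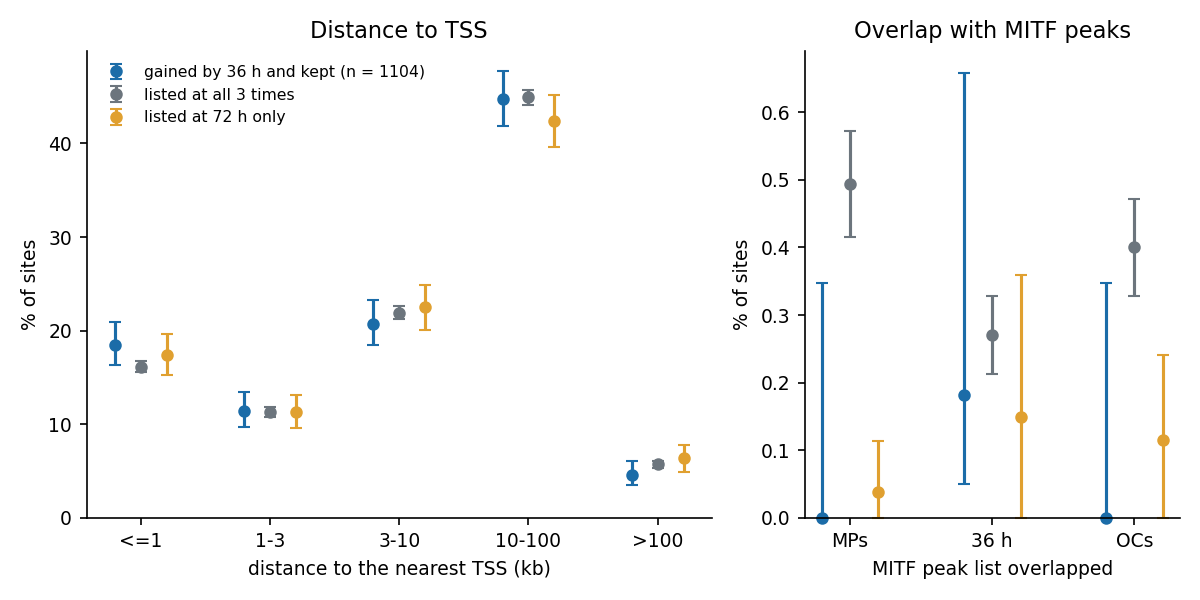
Percent of the 1104 separate sites (blue) in each class of distance to the nearest TSS, in kb (left), and percent that overlap a MITF peak of MPs, 36 h or OCs (right), beside PU.1 OC peaks listed at all 3 times (grey) and at 72 h only (yellow) weighted to the score classes of the sites. Bars are 95% intervals for counting error. The distance shares of the separate sites differ from the other sets by at most 2.36 points, and the MITF shares of the separate sites are 0, 0.181% and 0, beside 0.494%, 0.270% and 0.400%.

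Of the 15 motif families searched, NF-kB, AP-1 and GATA differed between the separate sites and a comparison set with the widest intervals used. A match to the NF-kB motif lay within 100 bp of the center at 35 of 1104 separate sites (3.17%, 2.29% to 4.38%), while 1.06% of all 44803 windows held it. The weighted share was 0.935% among peaks listed at all 3 times and 1.08% among peaks listed at 72 h only. The differences were 2.24 points (1.34 to 3.45) and 2.09 points (1.03 to 3.43). With intervals widened to 99.7% for the 15 families, they ran from 0.993 to 4.20 and from 0.580 to 4.22, so both stayed above 0. Adjacent sites held the motif at 3 of 292 (1.03%). NF-kB was singled out from the 15 families after the values were seen.

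By class of GC content and TSS distance, the NF-kB motif was compared with peaks listed at all 3 times and at 72 h only. In windows with a GC content under 45%, 8 of 224 separate sites held the motif against 0.869% of peaks listed at all 3 times, in those of 45% to 55% 19 of 626 against 0.927%, and in those of at least 55% 8 of 254 against 1.20%. The differences were 2.70 points (0.931 to 6.03), 2.11 (1.01 to 3.78) and 1.95 (0.325 to 4.93). Over 3 kb from a TSS 26 of 774 sites held it, a difference of 2.48 points (1.41 to 4.00). Against peaks listed at 72 h only, the difference under 45% GC was 1.51 points with an interval that included 0 (-0.554 to 4.96), and it was 2.19 points (0.882 to 4.01) at 45% to 55%, 2.60 (0.821 to 5.66) at 55% or more and 2.21 (0.930 to 3.88) over 3 kb from a TSS. Of the 35 sites, 5 also held the PU.1 motif and 3 the AP-1 motif. The median distance of the match from the peak center was 42 bp, against 13.5 bp for the PU.1 motif at the separate sites that held that one. Any NF-kB match contains the GGAA core on 1 strand, a core that nearly every window holds, and its part in the difference was not tested.

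The highest sites with the NF-kB motif were those assigned to Slc7a11 and Aif1, the latter with 53.2 at 36 h and 48.5 in OCs. Next by OC score was a site at -45302 bp from Eed (42.9 at 36 h and 41.1 in OCs). The sites that follow are examples and were not chosen by rank. Map3k8, a MAP kinase kinase kinase, had 29.6 and 33.8 at 54999 bp from its TSS. Olfm3 had 23.7 and 33.8 at -96013 bp, and Map3k5, also a MAP kinase kinase kinase, had 13.3 and 29.4 at 49438 bp. A site lay at the promoter of Cd74, the MHC class II invariant chain (41.4 and 27.9), and 1 was assigned to Gadd45a (28.1 and 32.3). In the intron of Mitf the scores were 31.0 and 29.4. At Sema7a, Tmsb10 and Nrp2 the 36 h scores of 50.3, 35.5 and 37.0 stood above the OC scores of 26.4, 27.9 and 27.9. Of the 35 sites, 15 were higher at 36 h and 20 in OCs, beside 370 and 734 of all separate sites. As these scores chose the sites, nothing is read from the direction.

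The AP-1 motif was more frequent where the score was higher at 36 h. It lay at 58 of the 370 separate sites with the higher score at 36 h (15.7%) and at 41 of the 734 with the higher score in OCs (5.59%), a difference of 10.1 points (6.24 to 14.4). Adjacent sites had 21.9% and 10.7%, a difference of 11.3 points (2.72 to 20.5). The same was seen in peaks listed at all 3 times, of which 17.6% and 7.71% held the motif after weighting, so the pattern was not particular to the sites described here. The split uses the PU.1 scores that chose the sites, with 1 library per time, so these values are a description only. Over all separate sites the motif was at 8.97%, which was 3.24 points above peaks listed at 72 h only (1.20 to 5.50) and -2.76 points from peaks listed at all 3 times (-4.39 to -0.853). Across all windows 11.4% held it. Peaks listed at 72 h only lack a 36 h peak by definition, so that comparison is not independent of the 36 h values that the rule used. Their weighted share of 5.73% lay beside the 5.59% of the separate sites with the higher score in OCs. Within 3 kb of a TSS the difference from them was 0.923 points (-2.08 to 4.69).

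The PU.1 motif was at 18.3% of separate sites and within 50 bp of the center at 188 of these 202 sites. All 44803 windows held it at 24.7%, and peaks listed at all 3 times had 21.4% after weighting, a difference of -3.11 points (-5.38 to -0.630). Peaks listed at 72 h only had 16.4%, a difference of 1.88 points (-1.16 to 5.07). By GC class, the PU.1 motif difference from peaks listed at all 3 times was 1.38 points (-3.86 to 7.49) under 45% GC. It was -2.75 points (-5.82 to 0.670) at 45% to 55% and -4.85 points (-8.35 to -0.260) at 55% or more. The GATA motif AGATAA was at 5.53% of separate sites, against 8.95% of peaks listed at all 3 times, and the difference of -3.43 points kept its sign in the wider interval (-5.26 to -0.941). Separate sites were richer in G and C, as given below. GATA and the families that follow were not compared by GC class, so the part of base composition was not tested. The wider intervals for RUNX (TGTGGT, -2.78 points), C/EBP (TTGCNNAA, -2.55 points) and IRF (GAAANNGAA, -2.54 points) against peaks listed at all 3 times included 0, although the 95% intervals did not. The MITF E-box (CACGTG or CATGTG) was at 15.2% against 17.1%, a difference of -1.93 points (-4.02 to 0.395). The NFAT motif TGGAAA was at 17.2% against 17.7%, a difference of -0.446 points (-2.65 to 1.97). The intervals for MITF and NFAT, factors that act with PU.1 in OCs, thus included 0.

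**Figure D5:**
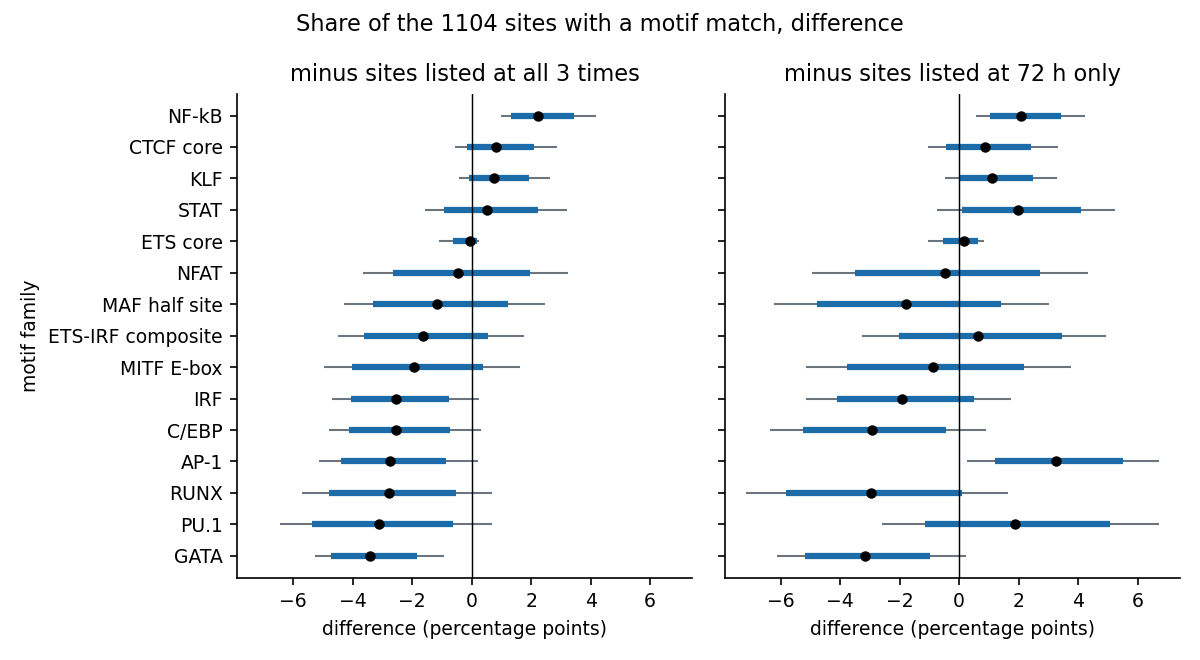
Difference in the percent of windows with a motif match between the 1104 separate sites and PU.1 OC peaks listed at all 3 times (left) or at 72 h only (right), in percentage points, for the 15 motif families. Points are differences, thick lines 95% intervals and thin lines intervals widened for 15 families. NF-kB lies above 0 on both sides with the wide interval, AP-1 above 0 on the right only, and GATA below 0 on the left.

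Separate sites were richer in G and C. The mean GC content of the window was 50.9% ± 7.25 (SD, n = 1104) against a weighted mean of 48.0% for peaks listed at all 3 times, a difference of 2.93 points (2.49 to 3.38), and against 48.7% for peaks listed at 72 h only. Over 3 kb from a TSS it was 48.9% against 46.7%, a difference of 2.28 points (1.88 to 2.69). CG dinucleotides numbered 4.03 per window against 3.23, a difference of 0.797 (0.485 to 1.11), but 2.35 against 2.20 away from a TSS, a difference of 0.153 (-0.00104 to 0.308).

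The genes nearest to the sites were spread widely. The authors' lists name the nearest RefSeq transcript, and 1253 of the 1396 sites had one with a known symbol, from 1132 genes. These are 10.0% of the 11278 genes named by PU.1 OC peaks of the score range. Of the 1132, 1023 had 1 site, 99 had 2 and 10 had at least 3. Glul, glutamine synthetase, had 4 sites among its 32 peaks, all separate, and Dhrs3, a retinal reductase, had 4 of 20, of which 2 were separate. With 3 sites each followed Gse1, Il20rb, Atxn1, Snx10 and Nrp2, all separate, and Klf4, Prex1 and Mitf, in which 2, 1 and 1 were separate. At 980 of the 1132 genes, other peaks of the score range were not among the sites. Of the 1396 sites, 1315 had no other within 12.5 kb, 39 runs held 2, and 1 run at Adap2 and Rnf135 on chromosome 11 held 3. The nearest peak listed at all 3 times lay within 12.5 kb of 69.9% of the separate sites. Neither spacing was computed for other PU.1 peaks, so both are descriptions only. By chromosome, separate sites made up between 1.63% (chromosome 19, 24 of 1476 peaks, 1.10% to 2.41%) and 3.13% (chromosome 8, 65 of 2075, 2.47% to 3.97%) of the peaks.

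Before weighting to the score classes, genes of OC biology were named by the sites at a rate near that of all peaks. Of the 1396 sites, 53 (3.80%) named a gene of 10 lists for OCs and macrophages, and 3.18% of all 44803 peaks did. With the nearest GENCODE gene, which counts small RNA genes, in place of the authors' RefSeq transcript, 35 of the 1396 sites (2.51%) did so. The GENCODE share of all 44803 peaks is not given here, so the 2.51% is not read against the 3.18%. The list counts below use the RefSeq transcript. By RefSeq transcript, separate sites had a share of 3.80%. After weighting, the difference was 1.13 points (0.122 to 2.46) from peaks listed at all 3 times, an interval that left out 0. It was 0.412 points (-1.004 to 2.07) from those listed at 72 h only. The list counts below are read against 3.12% of all peaks, or 2.46% for separate sites. These list shares are not weighted to the score classes, and the part of peak score in their order was not tested.

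Factors that promote OCs had 10 separate sites among 290 peaks (3.45%, 1.88% to 6.23%) and 4 adjacent ones. In the Mitf gene there were 3, with 37.0 at 36 h and 54.3 in OCs, 51.7 and 38.2, and 31.0 and 29.4, and the first 2 were adjacent sites. Ppargc1b had 2, the second with 14.8 at 36 h and 14 tags in OCs. Fos had 2, which lay 38877 and 48150 bp downstream of its TSS with 48.8 at 36 h and 26.4 in OCs, and 26.6 and 22.0, so both were higher at 36 h. Jdp2, an AP-1 family member that OCs need, had 28.1 and 27.9 at a site at -126 bp from its TSS. Prdm1, the repressor BLIMP1, had 20.7 and 29.4 at a site at -157677 bp, and Nfkb2, the subunit of the alternative NF-kB pathway, had 19.2 and 23.5 in an exon. Klf4 had 2 separate sites and 1 adjacent site, the highest separate one with 28.1 and 23.5 at -259955 bp, and Pparg had 1 adjacent site with 25.1 and 22.0. Nfatc1, Fosl2 and the other 18 of the 28 list genes had none.

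The list for factors that restrain OCs had 7 separate sites among 235 peaks (2.98%, 1.45% to 6.02%) and 1 adjacent one. The roles that name this list and the promoting list were assigned to the genes and not tested here. For single genes, such as Cebpa, the assigned role is open to dispute. Irf2, an interferon regulatory factor, had 29.6 at 36 h and 39.6 in OCs in an intron. Notch1 had an adjacent site with 42.9 and 39.6 and a separate one with 32.5 and 23.5. Irf8 had 20.7 and 32.3, and Id2, an inhibitor of E-box factors, had 16.3 and 30.8 at a site at -243834 bp. Cebpa, a myeloid factor, had 25.1 at 36 h and 17 tags in OCs, Yy1 had 17.7 and 23.5, and Bcl6, a repressor, had 22.2 and 22.0. The intervals of the shares for the lists of promoting and restraining factors overlapped and held 2.46%.

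Cell fusion genes had 5 separate sites among 71 peaks (7.04%, 3.05% to 15.4%), the highest share of the 10 lists, and 1 adjacent site. Cd81 had 71.0 at 36 h and 55.8 in OCs. The hyaluronan receptor Cd44 had 26.6 and 29.4, and 17.7 and 27.9, both in introns, and Cd47, the ligand of SIRPA, had an adjacent site with 25.1 and 26.4 and a separate one with 10.3 and 22.0. The Cd47 sites lay over 100 kb from its TSS. Dcstamp, the membrane protein that OC fusion needs, had 23.7 and 27.9 at a site that lies in an intron of Rims2. Resorption genes had 4 among 76 peaks (5.26%, 2.07% to 12.8%), namely 3 assigned to Snx10, the highest with 11.8 at 36 h and 22.0 in OCs, and 1 to Mmp14, a membrane-bound protease, with 23.7 and 23.5. The highest Snx10 site lay 135549 bp from the Snx10 TSS, and the others lay 203405 and 12923 bp from it. Acp5, Ctsk and the other 10 genes of this list had none.

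Genes of RANK and CSF1 receptor signalling had 3 sites among 118 peaks (2.54%), assigned to Map3k7, the kinase TAK1 (32.5 at 36 h and 30.8 in OCs at the higher of 2), and to Map2k6 (20.7 and 22.0). Of protein-coding genes in GENCODE, Bach2 had the TSS nearest to the Map3k7 sites. ITAM and calcium genes had 3 among 129 (2.33%), at Rcan1, a calcineurin regulator (32.5 and 32.3), Ppp3r1, a calcineurin subunit (16.3 and 23.5), and Itpr1, a calcium channel (10.3 at 36 h and 14 tags in OCs). Integrin, Src and podosome genes had 8 among 163 (4.91%), with Tln1 (47.3 and 52.9) and Rac2 (53.2 and 36.7) as adjacent sites and Actn1 (25.1 and 32.3), Dock5 (19.2 and 23.5), Myo1e (20.7 and 22.0) and Pxn (14.8 and 22.0) as separate ones, and 1 of each kind at Itgb1 (23.7 and 14.8 at 36 h, each with 14 tags in OCs). JAK-STAT genes had 4 among 109 (3.67%), at Ifngr1 (25.1 and 36.7), Stat3 (19.2 at 36 h and 17 tags in OCs), Il6ra (38.4 and 22.0) and the feedback inhibitor Socs1 (14.8 at 36 h and 14 tags in OCs, at -150 bp from its TSS).

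Cytokine genes had 2 among 96 (2.08%), at Il1rn, the IL-1 receptor antagonist (34.0 and 26.4), and at Il10 (32.5 at 36 h and 14 tags in OCs), both with the higher score at 36 h. Macrophage surface genes had 1 among 137 (0.730%, 0.129% to 4.02%), the adjacent site of Ccr2 with 69.5 and 104.3, and 0 separate sites, which was the lowest share of these 10 lists, with an interval that holds the 3.12% of all peaks. Of genes that mark other cells, the B cell, T and NK cell, and granulocyte and mast cell lists had 0 sites among 16, 10 and 12 peaks. Their intervals reached 19.4%, 27.8% and 24.2%, so these lists are too small to differ from the 3.12% of all peaks. Osteoblast and stroma genes had 2 among 41 (4.88%, 1.35% to 16.1%), at Pdgfrb (34.0 and 42.6) and Alpl (31.0 and 27.9).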

How the data were processed

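PU.1 and MITF ChIP-Seq of MPs, 36 h cultures and OCs, with IgG in MPs, was analysed from 7 deposited peak lists, 1 per library. Per the submitters' processing notes reads were handled with CASAVA 1.8, Bowtie2 and HOMER on mm9, and settings are not given in the sources used here. The deposited HOMER peak score is a tag count on a common scale. Dividing by 1 value per list (1.71, 1.48 and 1.47 for PU.1) turned scores into whole tags, with residuals of at most 0.0511 score units, and the rule's minimum of 20.6 is 14 tags. On HOMER's usual scale, which is assumed, the depths in units of 1e6 tags are 5.86 to 6.81 for PU.1, 3.12 for IgG and 8.76 to 10.3 for MITF. Depth was lowest in MPs among the PU.1 libraries and most 36 h peaks were wider (190 bp against 150 bp), and the effect of either on the selection was not tested.

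Peaks of 2 lists were paired where they shared 1 bp or more. TSS distances and classes used GENCODE vM1 at the peak center, symbols of RefSeq transcripts came from a GRCm38.p6 table, and mm9 windows reaching 100 bp to each side of the center were scanned for motifs on either strand. Comparison sets were weighted to 8 tag classes of the sites, leaving out classes with fewer than 20 comparison peaks. Peaks close to an MP peak center were not removed from the set listed at 72 h only. Shares have 95% Wilson intervals and differences have intervals combined from both shares. With 1 library per condition no p-value was computed. Overlaps were checked against bedtools 2.31.1 (0 peaks differed) and the intervals on simulated data. Named sites were the 10 highest, the 5 highest within 1 kb of a TSS, the 5 highest by MITF OC score, the 10 genes with most sites and all list genes with a site, with ranking of separate sites added after the data had been seen. The printed windows are examples that overlap no exon. Sites named for the NF-kB motif include examples not chosen by rank. Members, lists and rules were chosen with earlier results of these data known. Repeat content was not analysed here. Python 3.11.15, numpy 2.4.6, pandas 2.3.3, scipy 1.17.1 and matplotlib 3.10.9 were used.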

Additional observations from a re-analysis of the deposited data

How the results depend on the processing

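No paired analysis was possible because each condition has 1 library, and for the same reason no replicate could be left out. The number of sites, 1396 as reported, was 1563 with a reciprocal overlap of 50%, 1395 without peaks that overlap an IgG peak, 398 at a score of at least 30 and 865 where the 36 h score also had to reach the minimum score of the rule. At a score of at least 30 16.3% of sites lay within 1 kb of a TSS, 54.5% lay in introns, and the MITF overlap was 2.01% in MPs, 1.76% at 36 h and 1.51% in OCs (the cause was not tested). Over all 1104 separate sites, at the minimum score of the rule and not at 30, the MITF shares were 0, 0.181% and 0. The share with the AP-1 motif was 13.1% where the 36 h score reached that minimum and 8.02% in the window of 75 bp to each side. With the nearest GENCODE gene, which counts small RNA genes, 2.51% of the sites named a list gene, and the GENCODE share of all peaks is not given. Of 59 alternative values for the number and shares, the other 46 stayed within 1.5 times the number or within the interval of the share. The difference in MITF MP overlap from peaks listed at 72 h only was 0.285 points over all 1396 sites and -0.0385 points for separate sites, and all 9 sites with such an overlap were adjacent. Of the 54 alternative differences, it was the 1 that turned its sign where the reported interval left out 0, while others with intervals that held 0 also changed sign. Without weighting to the score classes, the difference in MITF 36 h overlap from peaks listed at all 3 times was -7.80 points. The lists show no signal under 6 or 7 tags, and whether separate sites near the limit lack PU.1 in MPs was not tested.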
